A study of Parasteatoda tepidariorum with 2 samples.

Results

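*Pt-osr-B* nuclei are defined here as nuclei of stage-7 embryos of the spider *Parasteatoda tepidariorum* that held at least 2 RNA molecules of *Pt-osr-B* (LOC107451631), at most 2 each of *Pt-BarH1*, LOC107447499 and *Pt-AP2-A*, at most 1 of *Pt-twist* and at most 4 of *At_eW_012_A08*. There were 293 of them among 6239 nuclei (4.70%). They were set against the 4419 nuclei that had no *Pt-osr-B* molecule under the same limits on *Pt-twist* and *At_eW_012_A08*. All nuclei came from 1 library, stage-7_nucleus, of 20 whole wild-type embryos of 1 egg sac. A second library, stage-7_cell, held 865 dissociated cells of 15 whole wild-type embryos of a different egg sac. From stained siblings, the authors judged these embryos to be slightly younger than the embryos of the library of nuclei. Both were made with the BD Rhapsody system, in which each RNA molecule is counted once per barcode. *Pt-osr-B* nuclei had a median of 10046 molecules (4729–19919) and 3416 genes, and nuclei without *Pt-osr-B* a median of 9920 molecules and 3371 genes. With 1 library per kind of sample, nuclei and embryos were not replicates and no difference was tested. Levels below are molecules of a gene per 10000 molecules, summed over the nuclei of a set, and the values in brackets after a level, a ratio or a percentage are 95% intervals that cover counting error only. The library of nuclei and the library of cells shared 6 barcodes, and 0 of the *Pt-osr-B* nuclei carried one of them.

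*Pt-osr-B* belongs to the odd-skipped family of zinc-finger transcription factors. In *Drosophila*, odd-skipped is a pair-rule gene, one of the genes that set up alternate segments in the early embryo, and the vertebrate family members act in the embryonic kidney, heart and limb. The stage-7 spider embryo is a nascent germ band in which stripes of gene expression divide the head, the thorax and the opisthosoma, the posterior part of the body. *Pt-BarH1* is a homeobox gene, *Pt-AP2-A* encodes an AP2-type transcription factor of the opisthosoma, LOC107447499 is an unnamed gene of the anterior opisthosoma, *Pt-twist* marks mesoderm and *At_eW_012_A08* marks endoderm and extraembryonic tissue.

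The rule was built on measured counts, so the counts of its genes are a description of the choice and not a result. At least 2 *Pt-osr-B* molecules were found in 592 nuclei, and the 293 nuclei kept by all limits were 49.5% of them. Applied in turn, the limit on *Pt-BarH1* removed 69 nuclei, that on LOC107447499 removed 66, that on *Pt-AP2-A* 30, that on *Pt-twist* 127 and that on *At_eW_012_A08* 7. Among the nuclei kept, 110 held exactly 2 *Pt-osr-B* molecules, 60 held 3, 35 held 4 and 28 held 5, with a maximum of 15 in a nucleus. Just outside the rule were 302 nuclei with 1 *Pt-osr-B* molecule and all other limits met, and 37 with 2 *Pt-twist* molecules and the rest met. Free RNA can give molecules of a gene in nuclei that do not express it. In the 394 nuclei with 10 or more *At_eW_012_A08* molecules, whose median depth was 13830 molecules, 8.63% (6.05–11.9) held at least 1 *Pt-osr-B* molecule and 1.27% (0.413–2.94) held at least 2, against 18.1% and 9.49% over all nuclei, whose median depth was 10452 molecules.

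Markers of body regions did not settle where along the body axis these nuclei lie. The thorax marker *Pt-gas1*, a hedgehog co-receptor, had a level of 0.406 (0.339–0.483) in *Pt-osr-B* nuclei and 0.817 in nuclei without *Pt-osr-B*, a ratio of 0.497 (0.414–0.593), and only 12 of the 293 held 3 or more *Pt-gas1* molecules. The ratio of *Pt-gas1* stayed below 1 under every alternative run, though it passed 0.5 under 5 of them. *Pt-gas1* was lower still in nuclei with 3 or more *Pt-BarH1* molecules, at 0.134. In nuclei with 3 or more molecules of LOC107447499, the gene of the anterior opisthosoma, it was at 1.53. A low level of *Pt-gas1* therefore does not decide whether the nuclei are thoracic. The head markers *Pt-otd* and *Pt-gsc* were also lower, with 0.312 against 1.28 and 0.0504 against 0.359. *Pt-six3-1*, the marker of the anterior tip, was at 0.995 against 1.01, but in both sets a few nuclei held most of it. In *Pt-osr-B* nuclei the 15 with 3 or more held 302 of the 316 molecules and the other 278 stood at 0.0468, and in nuclei without *Pt-osr-B* 318 such nuclei held 4394 of 4723 and the other 4101 stood at 0.0763. Of the opisthosoma genes that the rule did not limit, *Pt-eve* was at 0.794 against 0.867 and *Pt-caudal* at 0.535 against 0.633. The nuclei without *Pt-osr-B* were not held to the limits on LOC107447499 and *Pt-AP2-A*. Where they were, *Pt-caudal* was lower in them than in *Pt-osr-B* nuclei, as the levels by *Pt-osr-B* count below show. The set is therefore called by its rule. The 6 genes listed for mesoderm, endoderm and extraembryonic tissue summed to a level of 2.79 in *Pt-osr-B* nuclei and 4.42 in nuclei without *Pt-osr-B*, and 0 of the 6 were at 0. Among them *Pt-twist* had 0.183 against 0.108, *At_eW_012_A08* 0.570 against 0.537 and *Pt-GATA1* 1.90 against 3.46.

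The genes with the highest ratios apart from *Pt-osr-B* included an uncharacterized gene, a homeobox gene, receptors and a Hox gene. The uncharacterized LOC107444121 had 6.28 times (5.03–7.81) its level in nuclei without *Pt-osr-B*, the homeobox gene *Pt-gbx* 5.67 times (4.89–6.56), LOC107441450, annotated as a ROS-type receptor tyrosine kinase, 5.03 times and the FGF receptor *Pt-FGFRa* 4.10 times (3.78–4.45). They were followed by LOC107437681, annotated as the integrin alpha-PS2 (4.10 times), LOC107436092, annotated as a LIM domain only protein (4.05 times), the Hox gene *Pt-scr-B* (3.96 times, 3.28–4.75), LOC107452693 (3.94 times), LOC107455218 (3.93 times) and obstructor-E (3.29 times). The limb gene *Pt-sp6-9* came lower in this order, with 2.78 times (2.67–2.89). Among 7881 genes with a mean level of at least 0.1 in the 2 sets, 36 were at least 2-fold higher (0.457%), *Pt-osr-B* itself included, and 61 at least 2-fold lower (0.774%), including *Pt-AP2-A*, LOC107447499 and *Pt-BarH1*, which the rule limits. The median ratio of all 7881 genes was 1.02. The interval of the ratio lay wholly at 2 or more for 22 of the 36 genes and at 0.5 or less for 33 of the 61. Some calls rested on single nuclei. LOC122272521 had 112 of its 164 molecules in 1 nucleus, and without that nucleus its ratio was 0.790 in place of 2.49. LOC122273911 had 32 of 77 in 1 nucleus, and its ratio without it was 1.39 in place of 2.37. These 2 genes were picked out after their values were seen. Of the other 33 genes higher with a ratio, 4 fell slightly under 2 without their richest nucleus, with ratios between 1.71 and 1.96.

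**Figure D1:**
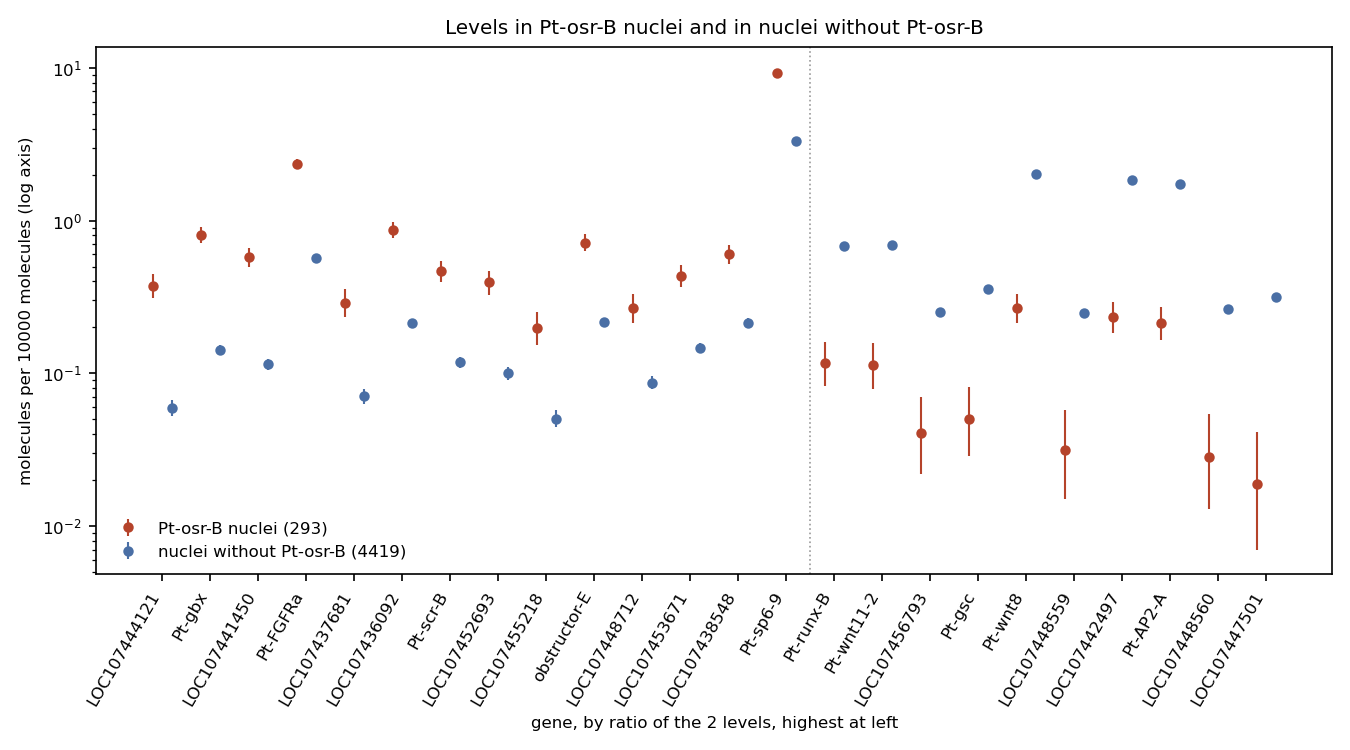
Levels (molecules per 10000 molecules, log axis) of the 14 genes other than *Pt-osr-B* with the highest ratios and the 10 with the lowest, in *Pt-osr-B* nuclei (left point of each pair) and in nuclei without *Pt-osr-B* (right point), with 95% exact Poisson intervals for counting error. At the left end LOC107444121 stood at 0.375 in *Pt-osr-B* nuclei against 0.0596, and at the right end LOC107447501 stood at 0.0189 against 0.316. *Pt-AP2-A* is a gene that the rule limits.

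Hox genes specify the identity of segments along the body axis, and spiders carry a pair of Hox clusters, A and B. Of the 7 listed Hox genes with enough molecules, 1 was higher and 2 were lower, with a median ratio of 0.777. *Pt-scr-B*, of the Sex combs reduced group, had 148 molecules over 74 of the 293 *Pt-osr-B* nuclei, a level of 0.466 (0.394–0.547) against 0.118 in nuclei without *Pt-osr-B*. It was found in 25.3% of *Pt-osr-B* nuclei and 8.60% of nuclei without *Pt-osr-B* (10.6% and 3.26% after thinning each nucleus to 3000 molecules), and in 0.508% of the *At_eW_012_A08* nuclei. Its counterpart in cluster A, *Pt-scr-A*, went the other way, with 0.173 against 0.436, a ratio of 0.398 (0.298–0.520). *Pt-AbdB-B*, a posterior Hox gene, was at 0.268 against 0.594, a ratio of 0.451, but the ratio was 1.44 when the nuclei without *Pt-osr-B* were also held to at most 2 molecules of *Pt-BarH1*, LOC107447499 and *Pt-AP2-A*. The remaining Hox genes over the floor on levels did not reach 2-fold, and among them *Pt-ftz* was at 2.90 against 4.55 and *Pt-lab-A* at 0.403 against 0.511. Below that floor, *Pt-antp-A* was at 0.0283 against 0.102, a ratio of 0.278 (0.126–0.532), and *Pt-lab-B* at 0.0378 against 0.121, a ratio of 0.311 (0.160–0.548).

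The genes beside *Pt-scr-B* on the chromosome did not all have high ratios. In the order of the RefSeq assembly CAS_Ptep_4.0, which is not the assembly used for counting and served only for neighbours, LOC107444121 lies next to a gene annotated as Hox-C4, and *Pt-scr-B* follows after 1 more locus. LOC107444121 itself had 119 molecules in 70 *Pt-osr-B* nuclei, a level of 0.375 (0.310–0.448) against 0.0596 in nuclei without *Pt-osr-B*. It was found in 23.9% against 4.44% (11.6% and 1.77% after thinning), and in 1.27% of the *At_eW_012_A08* nuclei. Hox-C4, which lies between the genes with the high ratios, was at 0.123 against 0.158, a ratio of 0.777 (0.548–1.07). After *Pt-scr-B*, all 10 genes up to LOC107447501 had ratios under 1, between 0.0598 and 0.639, as had 43.5% of the 7881 genes. Of these 10, 4 were below the floor on levels, and 5 of the other 6 had a ratio of 0.5 or less, as had 0.774% of the 7881 genes, with LOC107447499 among them by the rule. The lowest ratio of all genes was that of LOC107447501, the last gene of this run, with 6 molecules in *Pt-osr-B* nuclei and 1484 in nuclei without *Pt-osr-B*. Its ratio lay between 0 and 0.33 in 11 alternative settings. Reads from genes that overlap on the chromosome could be counted for a neighbour, which was not tested.

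Regulators of stripe formation did not move as a group. Of the 20 with enough molecules, 2 were higher and 5 lower, with a median ratio of 0.879. The 2 higher ones were *Pt-gbx*, a Gbx homeobox gene, and HES-1-A, a repressor of the Hes family. *Pt-gbx* had 257 molecules in 97 *Pt-osr-B* nuclei and a level of 0.809 (0.713–0.914) against 0.143 in nuclei without *Pt-osr-B*. It was found in 33.1% against 8.67% (17.8% and 3.94% after thinning) and in 4.06% of the *At_eW_012_A08* nuclei. HES-1-A was at 0.353 against 0.160. The 5 lower ones were *Pt-runx-B*, a Runx gene (0.117 against 0.682), *Pt-Delta*, a Notch ligand (0.249 against 1.03), *Pt-znf423*, a zinc-finger gene (1.04 against 3.18), *Pt-msx1*, an Msx homeobox gene (0.340 against 0.813), and *Pt-sox2-A*, a SoxB gene (0.853 against 1.71). HES-1-A fell under 2-fold in 5 of 11 alternative settings, where its ratio lay between 0.780 and 3.12, and *Pt-sox2-A* passed 0.5 in 6 of 11, with ratios between 0.383 and 0.653. Several others stood between 1.5-fold and 2-fold. *Pt-opa*, the Zic-family homologue of the *Drosophila* pair-rule gene odd-paired, was at 7.06 against 3.95. The gap gene homologue *Pt-hb* was at 2.80 against 1.46, and the Iroquois gene *Pt-mirr4* at 4.62 against 2.45. *Pt-prd2*, a Pax3/7 gene that marks posterior stripes, was at 0.472 against 0.826 and was found in 48 of the 293 *Pt-osr-B* nuclei.

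The 3 genes used to follow stripe splitting differed. *Pt-hh*, which encodes the secreted signal hedgehog, was found in 144 *Pt-osr-B* nuclei (49.1%) and in 46.9% of nuclei without *Pt-osr-B* (33.1% and 33.3% after thinning), and its level was lower, with 2.66 against 4.56. *Pt-noto1*, a homeobox gene, was found in 105 *Pt-osr-B* nuclei (35.8%) and in 20.1% of nuclei without *Pt-osr-B* (15.4% and 8.80% after thinning). *Pt-msx1* was found in 65 (22.2%) and in 37.8% of nuclei without *Pt-osr-B* (7.85% and 18.0% after thinning). A *Pt-hh* and a *Pt-noto1* molecule were in the same nucleus in 67 *Pt-osr-B* nuclei, where the product of the shares gives 51.6, and *Pt-hh* and *Pt-msx1* in 31, where it gives 32.0. *Pt-opa* was found in 261 *Pt-osr-B* nuclei (89.1%). A *Pt-hh* and a *Pt-opa* molecule were together in 130 of the 144 nuclei with *Pt-hh*, where the product of the shares gives 128.3.

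Of the signalling genes that passed 2-fold, the higher ones were receptors, apart from the Notch pathway repressor HES-1-A, and the lower ones were ligands, apart from *Pt-Notum* and the co-receptor *Pt-gas1*. Of the 11 Wnt pathway genes with enough molecules, 1 was higher and 5 were lower, with a median ratio of 0.703. The receptor *Pt-frizzled4* was at 0.872 (0.773–0.981) against 0.409, and the receptor *Pt-fz* was at 1.63 against 0.923, a ratio of 1.77. Of the Wnt ligands, *Pt-wnt8* was at 0.268 against 2.01, *Pt-wnt11-2* at 0.113 against 0.695, *Pt-wnt16* at 0.0630 against 0.240 and *Pt-wnt5* at 0.561 against 1.26. The ratio of *Pt-wnt11-2* was 0.163, but 0.733 when the nuclei without *Pt-osr-B* were also held to at most 2 molecules of the limited rule genes, and that of *Pt-wnt5* passed 0.5 in 4 of 11 settings, with 0.659 at most. *Pt-Notum*, whose product inactivates Wnt ligands, was at 0.463 against 1.38. Wnt-6, below the floor on levels, was at 0.117 against 0.0588.

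Of the 8 Notch pathway genes, 2 were higher and 2 lower, with a median ratio of 1.27. The receptor *Pt-Notch* was at 9.86 (9.52–10.2) against 4.59, a ratio of 2.15, and the second receptor gene LOC107450518 was at 3.70 against 2.64. Of the ligands, *Pt-Delta* and jagged-1 (0.696 against 1.75) were lower, whereas *Pt-Delta2* was at 0.504 against 0.260, a ratio of 1.94. *Pt-Notch* was also at 6.0 in the *At_eW_012_A08* nuclei.

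Of the 13 genes of FGF, EGF and BMP signalling, 2 FGF receptors were higher and 2 ligands lower, with a median ratio of 0.770. *Pt-FGFRa* was at 2.34 (2.18–2.52) against 0.571, and FGFR4 at 2.14 against 0.995. The ligand *Pt-fgf8* was at 2.24 against 4.83, and LOC107448055, annotated as a pro-epidermal growth factor, at 0.526 against 1.09. The ratio of LOC107448055 passed 0.5 in 7 of 11 settings, with 0.587 at most. FGFR4 fell under 2-fold in 4 of 11, to 1.64 with no *Pt-twist* molecule in either set. *Pt-FGFRa* stood at 1.30 in the 235 *Pt-osr-B* nuclei with no *Pt-twist* and at 6.29 in the 58 with 1, and FGFR4 at 1.37 and 5.08. None of the 7 hedgehog pathway genes was higher, and *Pt-gas1* was the 1 lower gene, with a median ratio of 0.774. The hedgehog receptor and target *Pt-ptc* was at 1.27 against 1.98.

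Of the 7 appendage genes, 1 was higher and 0 were lower, with a median ratio of 1.42. *Pt-sp6-9*, an Sp zinc-finger gene of limb outgrowth, had 2920 molecules in 240 of the 293 *Pt-osr-B* nuclei and a level of 9.19 (8.86–9.53) against 3.31. *Pt-dll*, the Dlx gene of limb outgrowth, was at 1.36 against 0.931, and the homothorax homologue LOC107450063 at 3.90 against 2.47. Of the 22 genes of surface and matrix proteins, 2 were higher and 2 lower, with a median ratio of 1.10. The higher ones were obstructor-E, a chitin-binding protein (0.718 against 0.218), and the ephrin receptor *Pt-eph* (1.65 against 0.703). The lower ones were the Toll-family receptor gene LOC107454132 (1.03 against 3.0) and hemicentin-2, a matrix protein (0.879 against 2.21). The ephrin ligand ephrin-B2a was at 4.11 against 7.41, a ratio of 0.555.

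Of the 5 head genes with enough molecules 3 were lower (*Pt-gsc*, *Pt-otd* and the Emx homeobox gene LOC107437266, 0.0630 against 0.180), and of the 6 opisthosoma genes 4 were lower, of which *Pt-AP2-A* and LOC107447499 were set by the rule. 2 further Emx homeobox genes that are neighbours on the chromosome, LOC107448559 and LOC107448560, were at 0.0315 against 0.248 and at 0.0283 against 0.265. LOC107456793, annotated as the T-box gene TBX20, was at 0.0409 against 0.251. LOC107442497, which is uncharacterized, was at 0.233 against 1.85. Among 7 cell cycle genes 0 were higher and 1 was lower, CDK inhibitor 1 (0.208 against 0.459), whose ratio passed 0.5 in 3 of 11 settings, with 0.561 at most. *Pt-cyclinD-1* was at 3.33 against 3.12 and histone H4 at 3.22 against 3.39.

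The leading genes were unevenly distributed over the *Pt-osr-B* nuclei. Nuclei with more molecules hold more of every gene, so the number of nuclei that hold both genes of a pair also depends on depth. LOC107441450 and LOC107436092 were found together in 27 nuclei, where the product of their shares gives 7.19. LOC107441450 and *Pt-FGFRa* were together in 27, where it gives 14.0. In contrast, LOC107441450 and obstructor-E were together in 2, where it gives 14.9, and *Pt-FGFRa* and obstructor-E in 24, where it gives 40.1. *Pt-scr-B* and LOC107444121 were together in 31, where it gives 17.7, and *Pt-scr-B* and obstructor-E in 38, where it gives 28.3. *Pt-gbx* was found with members of both groups, in 29 nuclei with LOC107444121 and in 17 with LOC107441450, where the products give 23.2 and 12.9.

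The nuclei were divided by 3 genes, after the values had been seen and as a description. At least 3 *Pt-FGFRa* molecules were held by 57 *Pt-osr-B* nuclei (19.5%), at least 3 *Pt-eve* by 29 (9.90%) and at least 3 *Pt-six3-1* by 15 (5.12%). No *Pt-FGFRa* and at most 2 each of *Pt-eve* and *Pt-six3-1* were held by 162 (55.3%). The *Pt-FGFRa* and *Pt-eve* sets shared 10 nuclei and the *Pt-FGFRa* and *Pt-six3-1* sets 1, and 41 nuclei were in none of the 4 sets. The 162 nuclei carried *Pt-scr-B* at 0.664, LOC107444121 at 0.515, obstructor-E at 1.09, *Pt-gbx* at 0.991, *Pt-sp6-9* at 12.4, *Pt-Notch* at 13.5 and *Pt-frizzled4* at 1.23, all above the levels of the whole set. The 57 nuclei with *Pt-FGFRa* carried little *Pt-scr-B* (0.0320), LOC107444121 (0.0800) and obstructor-E (0.144). They carried LOC107441450 at 2.30, LOC107436092 at 3.82, LOC107437681 at 1.30, FGFR4 at 7.73 and the uncharacterized LOC107451770 at 8.53. The 29 nuclei with *Pt-eve* carried *Pt-hh* at 6.20, *Pt-caudal* at 3.53 and *Pt-AbdB-B* at 1.49, and the 15 with *Pt-six3-1* carried *Pt-sp6-9* at 0.376.

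**Figure D2:**
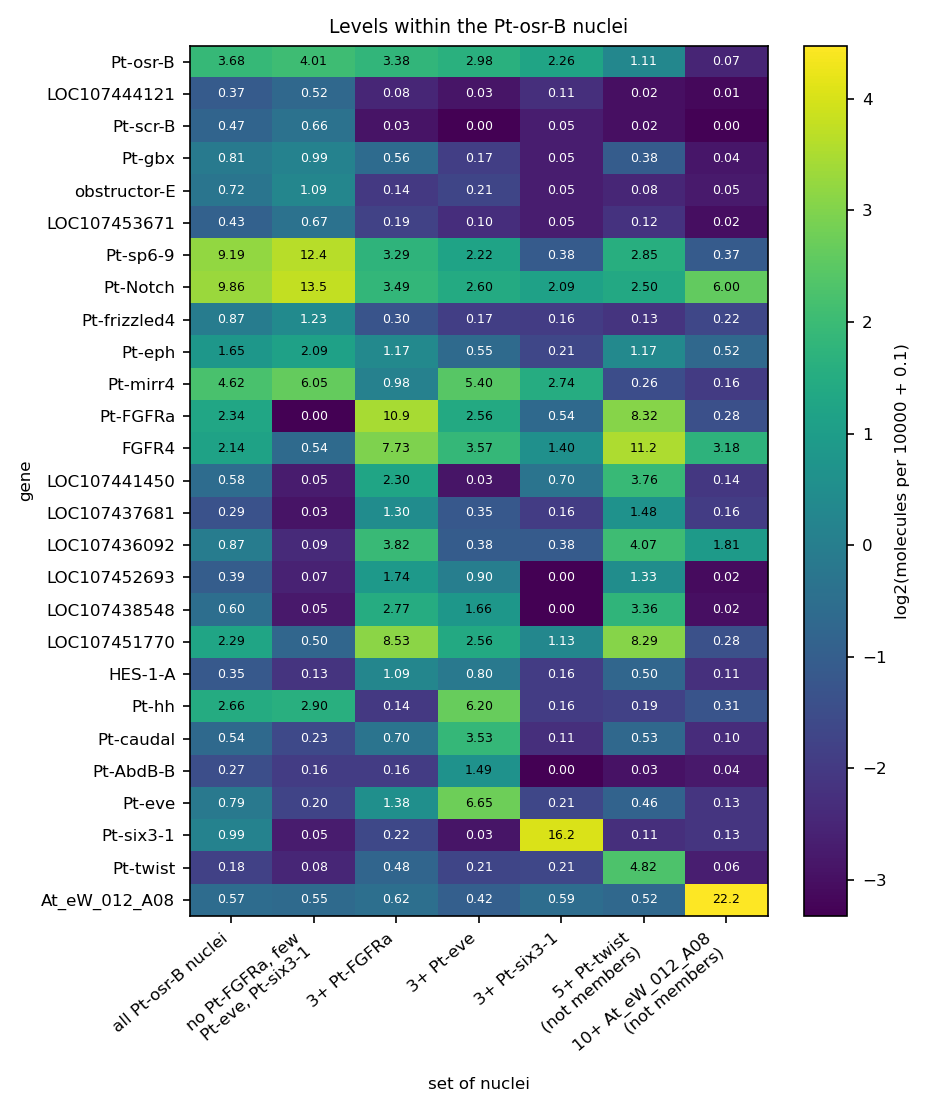
Levels (molecules per 10000 molecules, printed in each cell and coloured on a log2 scale) of 27 genes in all 293 *Pt-osr-B* nuclei, in 4 sets within them and in 2 sets of nuclei outside them. *Pt-scr-B* stood at 0.664 in the 162 nuclei with no *Pt-FGFRa* and at 0.0320 in the 57 with 3 or more *Pt-FGFRa*, whereas FGFR4 stood at 0.544 and 7.73, and at 11.2 in the nuclei with 5 or more *Pt-twist*.

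Nuclei of the mesoderm marker carried the genes of the *Pt-FGFRa* set. In the 141 nuclei with 5 or more *Pt-twist* molecules, which the rule leaves out, *Pt-FGFRa* was at 8.32, FGFR4 at 11.2, LOC107441450 at 3.76 and LOC107436092 at 4.07. A *Pt-twist* molecule was found in 30 of the 57 nuclei with 3 or more *Pt-FGFRa* (52.6%) and in 14 of the 162 nuclei with none (8.64%), and in 58 of all 293 *Pt-osr-B* nuclei (19.8%) against 506 nuclei without *Pt-osr-B* (11.4%). Of the 35 higher genes other than *Pt-osr-B*, 16 had a still higher level in the 141 *Pt-twist* nuclei than in *Pt-osr-B* nuclei and 19 a lower one. When nuclei with *Pt-FGFRa*, or with more than 2 *Pt-eve* or *Pt-six3-1*, were left out of both sets, the ratio was 0.987 for LOC107441450, 0.787 for LOC107436092, 0.511 for LOC107438548, 0.780 for HES-1-A and 0.983 for FGFR4. *Pt-gbx*, *Pt-scr-B*, LOC107444121, obstructor-E, *Pt-sp6-9*, *Pt-Notch* and *Pt-frizzled4* stayed above 2 in the same comparison. Over all 11 settings *Pt-frizzled4* fell under 2 in 3 (lowest 1.51) and *Pt-Notch* in 2 (1.58). Obstructor-E and *Pt-sp6-9* did so in 1 each (1.85 and 1.985), and *Pt-gbx*, *Pt-scr-B* and LOC107444121 in 0. With nuclei that held any *Pt-twist* molecule left out of both sets, 34 genes were higher and 68 lower, and 27 and 57 of them were among the 36 and 61. The part of mesodermal nuclei in the levels of the whole set was not otherwise tested.

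Levels changed with the number of *Pt-osr-B* molecules. From 0 through 1, 2, 3 to 4 and 5 or more *Pt-osr-B* molecules (3262, 302, 110, 95 and 88 nuclei, all under the limits on the other rule genes), *Pt-sp6-9* was at 3.12, 3.91, 6.26, 9.42 and 12.6, and *Pt-Notch* at 3.83, 4.91, 7.22, 10.1 and 12.9. The interval of each of these levels lay above that of the step before it. *Pt-gbx* was at 0.166, 0.256, 0.389, 0.980 and 1.16, and LOC107444121 at 0.0512, 0.138, 0.207, 0.410 and 0.548. For these genes the intervals of some neighbouring steps overlapped, among them those of the last 2 steps. *Pt-FGFRa* stopped at 2.67 and 2.66 in the last 2 steps. Other genes went another way. *Pt-six3-1* was at 1.36, 2.06, 1.93, 0.530 and 0.310, *Pt-caudal* at 0.253, 0.492, 0.728, 0.660 and 0.165, and *Pt-Delta* at 0.905, 0.502, 0.447, 0.110 and 0.145. The nuclei with exactly 2 *Pt-osr-B* molecules thus had a higher summed level of *Pt-six3-1* and a lower one of *Pt-sp6-9* than those with 5 or more. For *Pt-six3-1* this depends on where a few nuclei fall. Of its 316 molecules in *Pt-osr-B* nuclei, 302 were in 15 nuclei, and the other 278 nuclei stood at 0.0468. Depth differed little between these steps, with medians between 9346 and 10630 molecules.

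**Figure D3:**
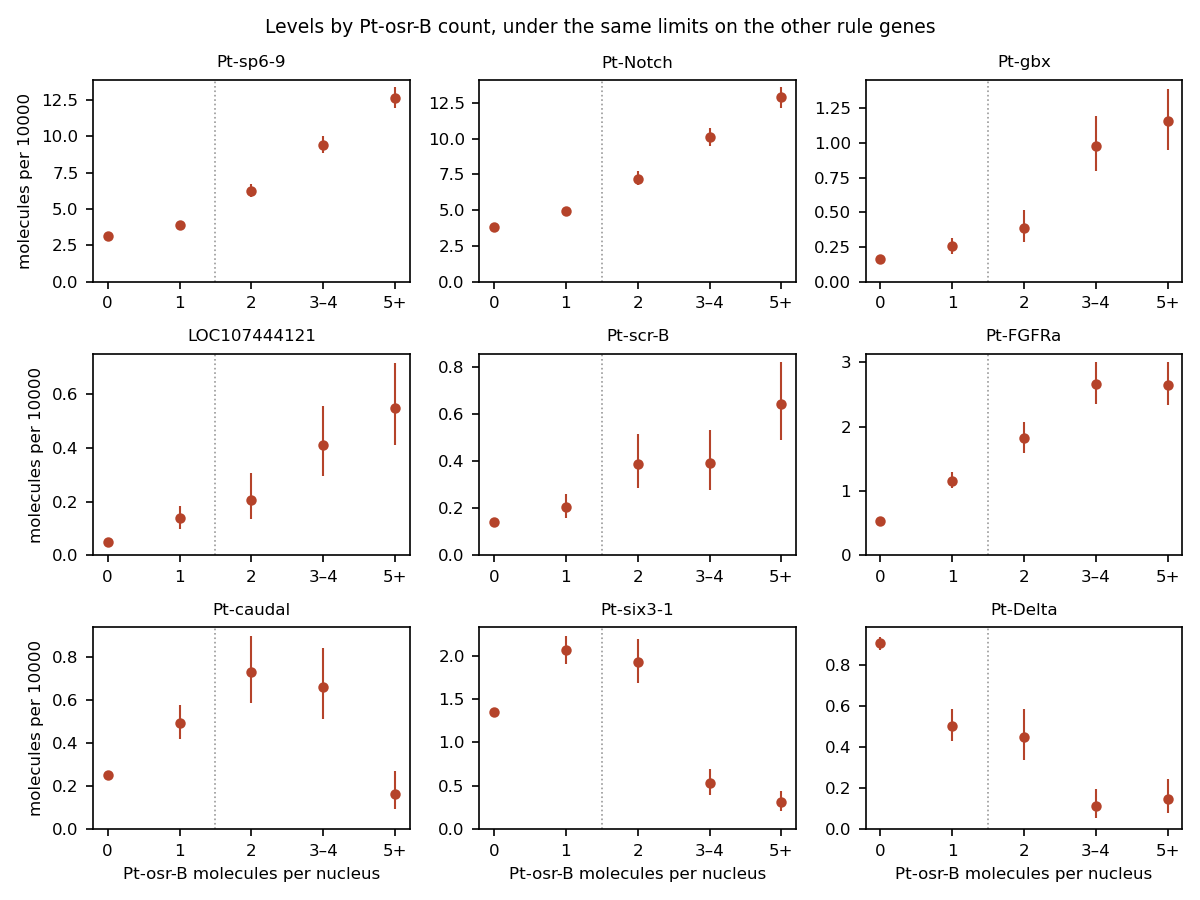
Levels (molecules per 10000 molecules) of 9 genes in nuclei with 0, 1, 2, 3 to 4 and 5 or more *Pt-osr-B* molecules, with 95% exact Poisson intervals. The dotted line marks the lower limit of the rule. *Pt-sp6-9* went up at every step, to 12.6 at 5 or more, and *Pt-six3-1* was highest at 1 molecule (2.06) and at 0.310 at 5 or more. In *Pt-osr-B* nuclei, 15 nuclei held 302 of the 316 *Pt-six3-1* molecules.

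Nuclei grouped by markers along the body axis carried different combinations of these genes. The 9 marker sets, of nuclei with 3 or more molecules of 1 marker, together held 2853 of the 5281 nuclei within the limits on *Pt-twist* and *At_eW_012_A08*. They held 59 of the *Pt-osr-B* nuclei (20.1%), of which 29 were in the *Pt-eve* set of 540, 15 in the *Pt-six3-1* set of 371, 10 in the *Pt-otd* set of 667, 5 in the *Pt-scr-A* set of 270 and 4 in the *Pt-pb-A* set of 61. The sets of *Pt-BarH1*, LOC107447499 and *Pt-AP2-A* could hold none, because the rule limits these genes to 2 molecules. *Pt-scr-B* was at 0.466 in *Pt-osr-B* nuclei and 0.488 in the *Pt-scr-A* set, and between 0.00363 and 0.0891 in the 8 others. LOC107444121 was at 0.375 in *Pt-osr-B* nuclei and 0.357 in the *Pt-BarH1* set, and at most 0.0271 in the 8 others. *Pt-Notch* was at 9.86 in *Pt-osr-B* nuclei and 20.7 in the *Pt-BarH1* set, and between 1.75 and 2.72 in the others. *Pt-gbx* and *Pt-FGFRa* were higher in *Pt-osr-B* nuclei (0.809 and 2.34) than in any of the 9 sets, where their highest levels were 0.325 (*Pt-pb-A*) and 1.50 (LOC107447499). The 9 sets, like the rule, allowed at most 1 *Pt-twist* molecule. Nuclei with more *Pt-twist* that met the rest of the rule carried both genes. *Pt-gbx* was at 0.765 in the 37 with 2 *Pt-twist* molecules and 0.808 in the 90 with 3 or more. *Pt-FGFRa* was at 9.09 and 9.58 in them. The 235 *Pt-osr-B* nuclei with no *Pt-twist* molecule had *Pt-FGFRa* at 1.30 (1.16–1.45), below the LOC107447499 set, and *Pt-gbx* at 0.860. *Pt-gas1* was at 0.406 in *Pt-osr-B* nuclei, 0.134 in the *Pt-BarH1* set, 2.19 in the *Pt-scr-A* set and 1.53 in the LOC107447499 set.

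**Figure D4:**
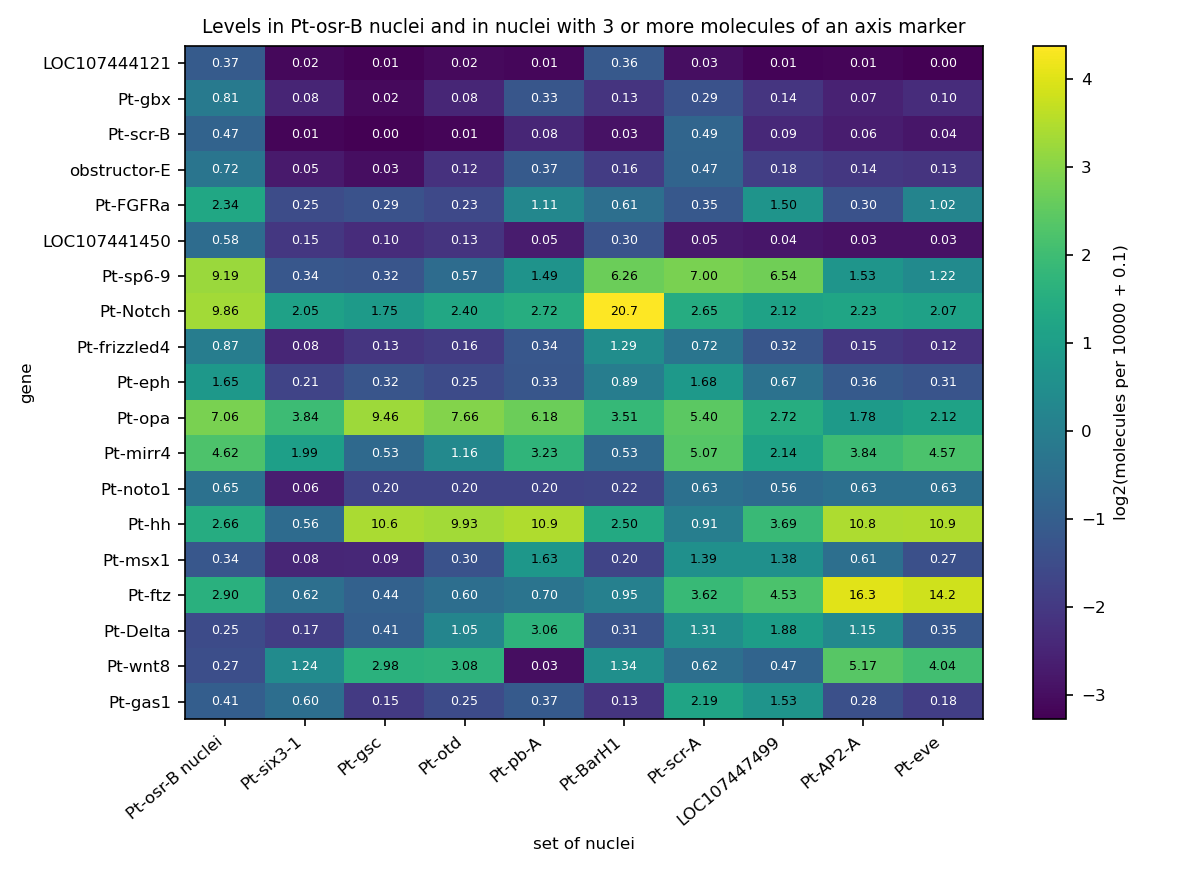
Levels (molecules per 10000 molecules, printed in each cell and coloured on a log2 scale) of 19 genes in the 293 *Pt-osr-B* nuclei and in 9 sets of nuclei with 3 or more molecules of the marker named below the column. LOC107444121 and *Pt-Notch* were high in *Pt-osr-B* nuclei (0.375 and 9.86) and in the *Pt-BarH1* set (0.357 and 20.7), and *Pt-scr-B* in *Pt-osr-B* nuclei (0.466) and in the *Pt-scr-A* set (0.488).

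Against the 361 *Pt-BarH1* nuclei, 64 of 7865 genes were at least 2-fold higher in *Pt-osr-B* nuclei (0.814%) and 27 at least 2-fold lower (0.343%). The highest ratios apart from that of *Pt-osr-B* were those of *Pt-scr-B* (0.466 against 0.0329), LOC107451660, annotated as a vitamin K-dependent protein C (7.31 against 0.757), *Pt-mirr4* (4.62 against 0.534) and the nuclear receptor gene *Pt-tll* (0.186 against 0.0253). Apart from *Pt-BarH1*, the lowest were those of the Hox gene *Pt-lab-B* (0.0378 against 0.476), LOC107456793 (0.0409 against 0.329), LOC122271476, annotated as agrin-like (0.0472 against 0.294), and *Pt-wnt8* (0.268 against 1.34).

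Against the 265 *Pt-scr-A* nuclei that were not *Pt-osr-B* nuclei, 93 of 7840 genes were higher (1.19%) and 40 lower (0.51%). LOC107437681 was at 0.290 against 0.00921, *Pt-six3-1* at 0.995 against 0.0460, LOC107444121 at 0.375 against 0.0276 and LOC107436092 at 0.869 against 0.0767. The 0.00921 of LOC107437681 came from 3 molecules. In the 235 *Pt-osr-B* nuclei with no *Pt-twist* molecule, LOC107437681 and LOC107436092 stood at 0.151 and 0.450. In the 58 with 1 *Pt-twist* molecule they stood at 0.814 and 2.46. The level of *Pt-six3-1* came from 15 *Pt-osr-B* nuclei, and the other 278 stood at 0.0468. The lowest after *Pt-scr-A* were LOC107447506 (0.0378 against 0.770), LOC107436465, annotated as the zinc-finger gene BCL11A (0.101 against 1.16), LOC107447497 (0.0661 against 0.684) and LOC122268913 (0.0724 against 0.715). LOC107447497, LOC107447506 and LOC122268913 lie in the run of genes after *Pt-scr-B*.

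Against the 427 LOC107447499 nuclei, 58 of 7849 genes were higher (0.739%) and 52 lower (0.663%). LOC107444121 was at 0.375 against 0.00948, LOC107441450 at 0.576 against 0.0417, *Pt-six3-1* at 0.995 against 0.0796, LOC107445973 at 0.561 against 0.0625 and LOC107450357 at 0.989 against 0.140. LOC107441450 stood at 0.239 in the 235 *Pt-osr-B* nuclei with no *Pt-twist* molecule and at 1.85 in the 58 with 1. Outside the 15 nuclei that held most *Pt-six3-1*, its level in *Pt-osr-B* nuclei was 0.0468. The lowest after LOC107447499 were LOC107447501 (0.0189 against 0.282), LOC122269180 (0.0346 against 0.497), LOC107447505 (0.0315 against 0.301) and *Pt-AP2-A* (0.214 against 1.92), which the rule limits.

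A further 85 nuclei held 2 or more *Pt-osr-B* molecules with LOC107447499 or *Pt-AP2-A* over the limit. Against these opisthosomal *Pt-osr-B* nuclei, 136 of 7888 genes were higher (1.72%) and 126 lower (1.6%), more than against any other set, though with the fewest nuclei and molecules behind the levels. LOC107444121 was at 0.375 against 0.00979, from 1 molecule in the opisthosomal nuclei. The hedgehog-spreading factor shifted was at 0.583 against 0.0392 and LOC107457468 at 0.236 against 0.0196. The lowest ratios apart from those of LOC107447499 and *Pt-AP2-A* were those of LOC107447501 (0.0189 against 0.499), LOC122269180 (0.0346 against 0.871) and LOC122268431 (0.0220 against 0.440).

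The library of dissociated cells had no part in the rule. Only 34 of its 865 cells met the same limits, so cells with 1 or more *Pt-osr-B* molecules and the other limits met (102 cells, median 10340 molecules) were set against 639 cells without *Pt-osr-B* (median 8471 molecules). Of 6339 genes, 46 were at least 2-fold higher in cells with *Pt-osr-B* (0.726%) and 67 at least 2-fold lower (1.06%). Of the 35 genes higher in *Pt-osr-B* nuclei, 20 had enough molecules in cells, and 19 of the 20 had a ratio over 1, as had 53.1% of all genes. 12 of the 20 were at least 2-fold higher, and their median ratio was 2.20, beside 1.01 over all genes. The exception was LOC122273911, with a ratio of 0.561. Of the 58 genes lower in *Pt-osr-B* nuclei and not in the rule, 33 had enough molecules, 30 of the 33 had a ratio under 1, as had 46.9% of all genes, and 16 were at least 2-fold lower, with a median ratio of 0.503. In both libraries the limits on *Pt-BarH1*, LOC107447499 and *Pt-AP2-A* held only for the set with *Pt-osr-B*. Genes expressed together with them can be lower in that set by the choice alone, so the lower genes are no independent check. These counts are over genes of 1 library and carry no test.

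In cells the leading genes had their own values. *Pt-sp6-9* was at 2.49 in cells with *Pt-osr-B* and 1.13 in cells without, a ratio of 2.20 (1.90–2.54). LOC107441450 was at 0.307 against 0.0691, *Pt-FGFRa* at 0.382 against 0.140, LOC107436092 at 0.270 against 0.0576 and LOC107453671, annotated as the silent chromatin protein ESC1, at 0.912 against 0.338. The mesoderm marker *Pt-twist* was also higher in cells with *Pt-osr-B*, with 0.224 against 0.102, a ratio of 2.19 (1.31–3.56), and its part in these values was not tested. *Pt-frizzled4* was at 0.447 against 0.217 and *Pt-Notch* at 1.48 against 0.858, a ratio of 1.73. *Pt-Delta* was at 0.0652 against 0.255 and *Pt-otd* at 0.168 against 0.443. LOC107444121 was below the floor in cells, with 16 molecules in cells with *Pt-osr-B* and 28 in cells without, a ratio of 3.23 (1.63–6.18). Among the 3 lower genes with a ratio over 1 in cells was the Emx gene LOC107448559, at 0.158 against 0.109, with an interval of the ratio that included 1.

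**Figure D5:**
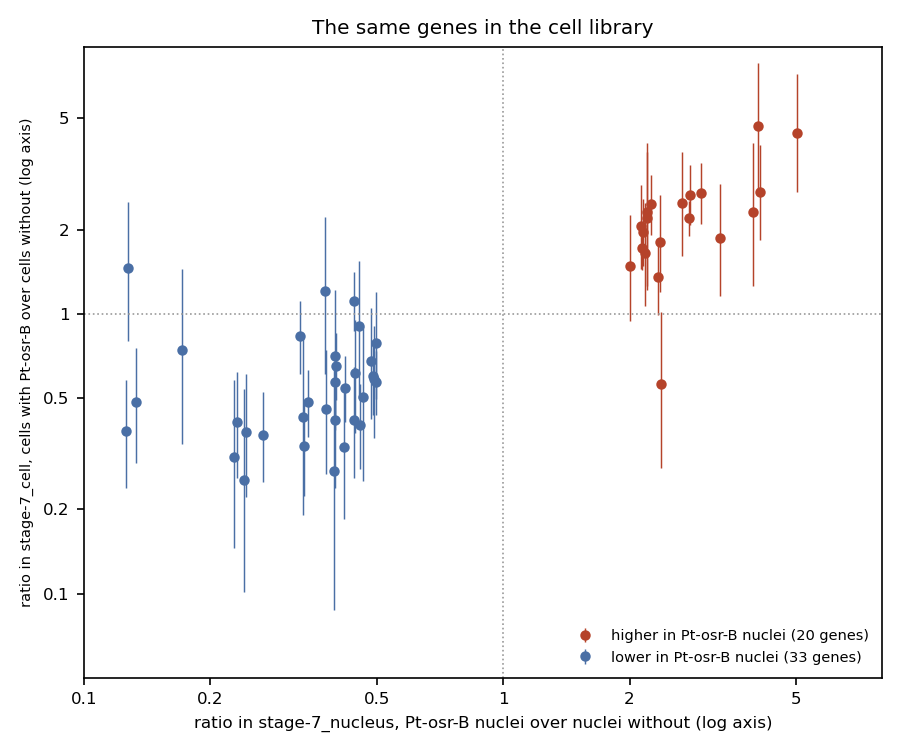
Ratios of the 20 higher and 33 lower genes with enough molecules in both libraries: the x axis gives *Pt-osr-B* nuclei over nuclei without *Pt-osr-B*, the y axis cells with *Pt-osr-B* over cells without, both on log axes, with 95% intervals for counting error on the y axis. Of the higher genes 19 of 20 lie above 1 in cells, and of the lower genes 30 of 33 lie below it. The limits on *Pt-BarH1*, LOC107447499 and *Pt-AP2-A* held only for the sets with *Pt-osr-B*, in both libraries.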

How the data were processed

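The authors deposited counts of RNA molecules per gene and barcode, made with the BD Rhapsody pipeline and STAR 2.5.2b on the assembly Ptep_3.0, with reads in introns counted for nuclei, and filtered with Seurat 4.1.1 (over 2000 genes and under 20000 molecules for nuclei, over 1500 genes for cells). The filtered table held 6239 nuclei, and those limits gave 6236. The other deposited units were not used. No doublet caller was run, and doublets were limited only by that upper bound on molecules. Counts were summed per set with Python 3.11.15, numpy 2.4.6, scipy 1.17.1 and pandas 2.3.3, and divided by the set's molecules. Intervals are exact Poisson for levels, conditional binomial for ratios and Clopper-Pearson for percentages. Calls needed a mean level of 0.1 and a 2-fold ratio. The procedure was tested on simulated data. Genes named were the listed genes that passed 2-fold, rule and marker genes, the 15 highest and 10 lowest, and the 5 highest and lowest against each other set. Members and gene lists were chosen with earlier results of these data known. Of 19692 gene identifiers, 16452 were found in the RefSeq table of CAS_Ptep_4.0. Late stage-5 nuclei are not used here, and how reads of close paralogues were assigned is not given in the sources used here.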

Additional observations from a re-analysis of the deposited data

Results flagged for a closer look

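*Pt-osr-B* was also found in nuclei that the rule leaves out. Of the 141 nuclei with 5 or more *Pt-twist* molecules, which the rule leaves out as mesodermal, 72 held at least 1 *Pt-osr-B* molecule and 56 held at least 2 (39.7%, 31.6–48.3), at a level of 1.12 molecules per 10000. In the 394 nuclei with 10 or more *At_eW_012_A08* molecules 1.27% held at least 2. The median depths were 14684 molecules and 13830 molecules. The difference was not tested, since all these nuclei come from 1 library.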

How the results depend on the processing

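The counts of 36 higher and 61 lower genes changed most with the thresholds: 1560 and 4472 with no floor on levels other than 1 molecule, 18 and 33 with a floor of 0.3, 117 and 132 at 1.5-fold, and 12 and 25 at 3-fold. With 1 or more *Pt-osr-B* molecules as the rule they were 17 and 32 (595 nuclei), and after thinning the chosen nuclei to 3000 molecules 79 genes were higher, 31 of them among the 36. Under the other 9 settings they ranged from 28 to 52 and from 45 to 90. Similar counts did not mean the same genes. With the same limits of 2 on the nuclei without *Pt-osr-B*, 53 genes were lower, and only 39 of them were among the 61. In that setting 41 genes were higher, 34 of them among the 36. For 48 named genes, 527 ratios were recomputed, 69 moved to the other side of 2-fold and 8 crossed 1. With *Pt-FGFRa* left out and *Pt-eve* and *Pt-six3-1* limited, a setting chosen after seeing the data, the ratios that crossed 1 were those of LOC107441450 (0.987), LOC107436092 (0.787), LOC107438548 (0.511), HES-1-A (0.780) and FGFR4 (0.983). With the same limits of 2 on the nuclei without *Pt-osr-B* they were those of *Pt-AP2-A* (1.07), *Pt-AbdB-B* (1.44) and LOC107447499 (1.05). These changes follow from which nuclei each setting leaves out. No paired analysis was possible because each kind of sample had 1 library and no result comes from a test. Genes with few molecules, near the floor of 0.1, have wide counting intervals, and no interval covers variation between embryos or libraries.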
